A study of Mus musculus with 11 samples.

Results

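A set of 8 transcription factors of effector T cell differentiation was examined in sorted mouse CD4 T cells: Irf4, Batf, Bhlhe40, Hopx, Prdm1, Bcl6, Id2 and Id3. The 8 genes were chosen by name, with earlier results of these data known, and all of them were measured, among 18193 genes with values. They had 13 probe sets in all, each probe set being 1 set of array probes with 1 summarised value. Where a gene had several, the level given is that of the brightest one, judged by its mean on all 11 arrays. The CD4 T cells came from the spleen and lymph nodes of 6- to 8-week-old mice and were purified by positive selection, then sorted and sorted again. The GFPKO arrays (n = 3) held GFP-positive cells of Foxp3GFPKO/WT mice. In these mice 1 Foxp3 allele is wild type and the other is a null allele that makes GFP. The GFP-positive cells are thus cells in which the null allele is active. The arrays labelled Treg (n = 5) are described in the labels as Foxp3-positive cells and the TN arrays (n = 3) as naïve Foxp3-negative cells. The labels give no strain and no genotype for the Treg and TN mice, and do not say whether replicate arrays stem from different animals. The spread that the p-values measure is thus that between these arrays and may be technical, and the number of arrays limits the precision.

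When a naïve CD4 T cell meets antigen, signals from the T cell receptor induce a set of transcription factors that move it towards an effector state. IRF4 binds DNA together with BATF, an AP-1 family protein, at composite elements, and the pair opens many of the genes used by effector helper cells and by effector regulatory T cells. Blimp-1, the product of Prdm1, and Bcl6 repress each other and direct terminal effector cells and follicular helper cells. Id2 and Id3 have no DNA-binding region of their own and hold E proteins, a family of basic helix-loop-helix factors, away from DNA.

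Before the comparisons, the labels were set against marker genes. Cd3e read between 10.60 and 11.09 and Cd4 between 7.34 and 8.37 on the log2 scale over all arrays, so both defining T cell markers were present in each group. Foxp3, measured by a single probe set, read 6.75 to 7.19 on GFPKO arrays, 3.29 to 3.64 on arrays labelled Treg and 3.12 to 3.99 on TN arrays. The arrays labelled Treg thus read at the level of TN, against their label. Other genes known for high expression in regulatory T cells ran with the label. Il2ra, which encodes the interleukin receptor alpha chain CD25, averaged 8.41 in GFPKO, 9.18 in the arrays labelled Treg and 3.56 in TN. It was at least 21.3-fold higher than TN in GFPKO and at least 36.4-fold higher in the arrays labelled Treg (limma adjusted p = 2.6e-10 and 9.3e-12). Ctla4, an inhibitory receptor, averaged 9.66 in GFPKO, 10.16 in the arrays labelled Treg and 5.81 in TN. Where the probes of the Foxp3 set lie relative to the altered part of the null allele was not known, so its value does not check the knockout. The highest Foxp3 value on a TN array, 3.99, served as the background level, a choice made with the values known. All 3 GFPKO arrays had Xist at 11.07 or more and the Y-linked gene Kdm5d at 2.37 or less, while the arrays labelled Treg and TN read Xist at 3.96 or less and Kdm5d at 5.81 or more. Sex and genotype cannot be told apart in any comparison with GFPKO. GFPKO arrays were also less alike, with a lowest correlation across genes of 0.979, against 0.990 for the arrays labelled Treg and 0.994 for TN.

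Because Hopx had the largest change of the 8 genes between the arrays labelled Treg and TN, and because Id2 and Id3 went opposite ways in the arrays labelled Treg, their promoter windows are shown. RefSeq windows on build GRCm38.p6, each holding 250 bases before a gene's start and 50 after it, were found for 7 of the 8 genes; Bhlhe40 is not among them. Capitals mark matches to any of 6 motifs searched on both strands: CACGTG, an E-box that Bhlhe40 binds; CAGCTG, an E-box of E proteins; TGANTCA of AP-1; GAAANNGAA of IRF factors; GTAAACA of forkhead factors; and TTCNNNGAA of STAT factors. Hopx has 2 windows, chr5:77115074-77115373 and chr5:77095218-77095517, both on the minus strand; the Id2 window is chr12:25096043-25096342 on the minus strand and the Id3 window chr4:136143572-136143871 on the plus strand.
Hopx, window 1: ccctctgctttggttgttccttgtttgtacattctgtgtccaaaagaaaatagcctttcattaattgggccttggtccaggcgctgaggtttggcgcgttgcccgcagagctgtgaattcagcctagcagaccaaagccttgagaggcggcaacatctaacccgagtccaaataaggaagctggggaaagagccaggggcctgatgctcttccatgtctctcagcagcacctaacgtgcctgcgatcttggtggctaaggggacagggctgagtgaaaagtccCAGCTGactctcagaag
Hopx, window 2: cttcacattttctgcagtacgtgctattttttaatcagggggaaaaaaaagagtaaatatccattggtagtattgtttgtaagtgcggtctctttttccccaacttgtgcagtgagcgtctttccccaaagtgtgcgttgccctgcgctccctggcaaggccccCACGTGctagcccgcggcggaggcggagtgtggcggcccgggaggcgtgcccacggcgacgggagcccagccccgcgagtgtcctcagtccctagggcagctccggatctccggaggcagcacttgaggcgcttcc
Id2: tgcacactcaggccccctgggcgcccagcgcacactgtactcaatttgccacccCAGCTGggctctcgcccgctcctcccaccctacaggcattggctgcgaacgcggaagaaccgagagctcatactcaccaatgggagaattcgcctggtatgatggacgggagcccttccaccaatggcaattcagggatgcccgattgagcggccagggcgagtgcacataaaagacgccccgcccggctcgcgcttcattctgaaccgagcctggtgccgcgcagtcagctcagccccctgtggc
Id3: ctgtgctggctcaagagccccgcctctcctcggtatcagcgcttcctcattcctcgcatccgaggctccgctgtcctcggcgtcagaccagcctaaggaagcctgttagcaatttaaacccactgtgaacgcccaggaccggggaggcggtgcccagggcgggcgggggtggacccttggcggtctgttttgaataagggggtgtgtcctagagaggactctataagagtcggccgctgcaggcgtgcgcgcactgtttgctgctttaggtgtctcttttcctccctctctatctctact

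The Id2 window holds 1 CAGCTG, starting at base 55 of the window, and the first Hopx window holds 1 at base 284; over all 32851 windows of the genome 16.3% hold this motif. The second Hopx window has CACGTG at base 165, a motif found in 7.15% of all windows. In the Id3 window none of the 6 motifs was found. Of the windows not printed, those of Irf4 and Batf had none, and that of Prdm1 had a GTAAACA, found in 3.65% of windows, and a TGANTCA match, found in 7.81%. Bcl6 had 1 TTCNNNGAA match and 1 CACGTG in its first window and 3 TTCNNNGAA matches in its second. Of all windows 8.30% hold at least 1 TTCNNNGAA match, and the share holding 3 was not counted. GAAANNGAA, found in 8.56% of all windows, was in none of the windows of these genes. A match is a description of letters and not a binding site, and none of these windows was assayed here.

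Of the 8 genes, 7 changed between the arrays labelled Treg and TN, where 6 rose and 1 fell; of all genes tested, 9.97% were called, 6.54% higher and 3.42% lower. A gene was called at a limma p under 0.05 after Benjamini-Hochberg adjustment over all 18193 genes. The median log2 fold change of the 8 genes was 1.05, against 0.030 over all genes, and the groups did not overlap in 6 of the 8, against 19.5% of all genes. Between GFPKO and TN, 3 genes rose and none fell, where 5.66% of all genes were called, 2.64% higher and 3.02% lower. At an unadjusted p under 0.05 there were 5. The share of all genes at that level was not counted, so this number is not read as a result. The median of the 8 was 0.52, against -0.037 over all genes, and the groups did not overlap in 3, against 18% of all genes. Between GFPKO and the arrays labelled Treg, 1 gene rose and 4 fell, where 9.43% of all genes were called, 2.55% higher and 6.88% lower. Here the median was -0.53 against -0.079 over all genes, and 5 of the 8 genes did not overlap, against 14.4% of all genes. The contrasts share arrays, since each group enters 2 of them, so their counts are not independent. As the 8 genes were chosen with earlier results of these data known, their counts and medians beside those of all genes are not independent evidence. In bulk samples, a change in the share of cells that make an RNA and a change in RNA per cell cannot be told apart.

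**Figure D1:**
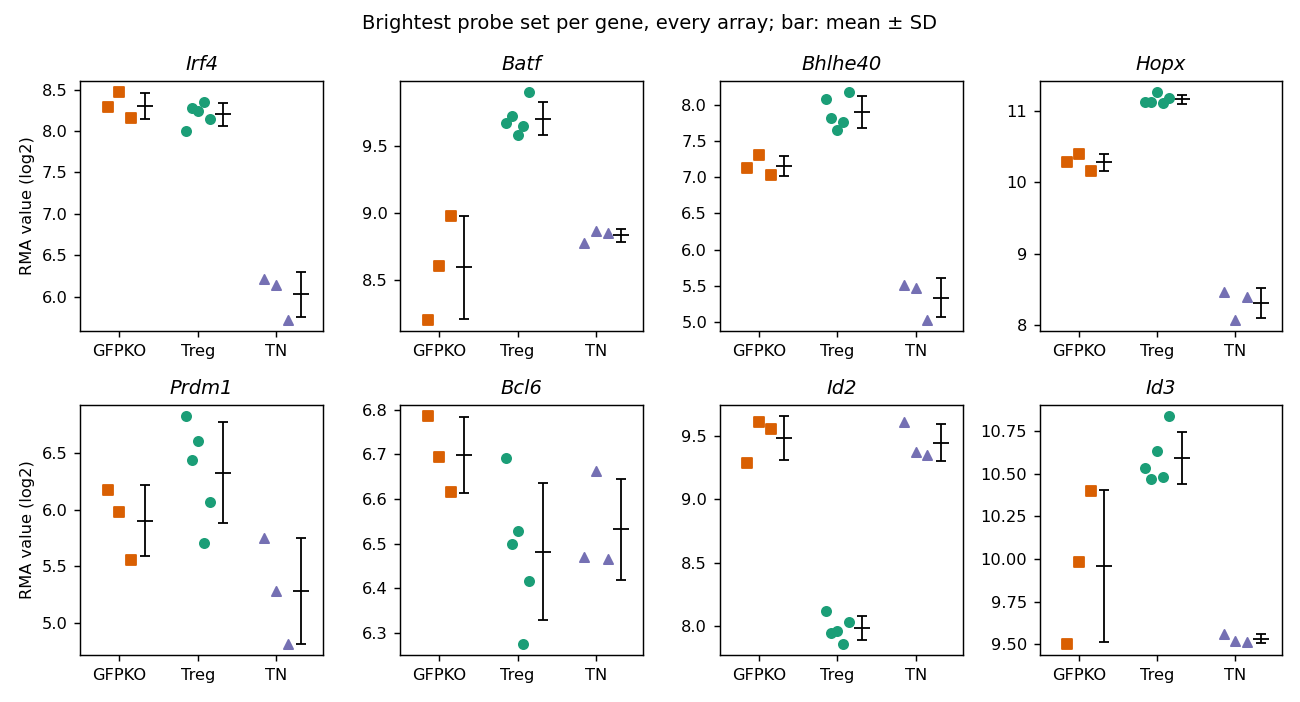
RMA values (log2) of the brightest probe set of each gene on every array, with GFPKO as squares, arrays labelled Treg as circles and TN as triangles; black marks give mean ± SD (n = 3, 5 and 3), and each vertical axis covers its own range. Irf4, Bhlhe40 and Hopx lie above TN in both other groups, Id2 is low only on the arrays labelled Treg, and the GFPKO arrays spread widely for Batf and Id3.

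Irf4, the interferon regulatory factor induced by T cell receptor signals, was high in GFPKO and in the arrays labelled Treg alike, and the difference between these did not pass the test. It read 8.29, 8.47 and 8.16 on GFPKO arrays, 8.00, 8.27, 8.24, 8.35 and 8.14 on arrays labelled Treg, and 6.21, 6.15 and 5.72 on TN arrays. Every GFPKO and Treg-labelled array thus lay above every TN array, and the values of GFPKO and of the arrays labelled Treg overlapped. In limma Irf4 exceeded its TN level 4.84-fold in GFPKO (a log2 fold change of 2.28 ± 0.15 SE, with adjusted p = 1.7e-07) and 4.50-fold in the arrays labelled Treg (2.17 ± 0.14, adjusted p = 3.5e-08). Only 0.462% and 0.835% of all genes had a larger absolute change in these contrasts. GFPKO minus Treg gave 0.10 ± 0.14 (95% interval -0.19 to 0.40, adjusted p = 0.716). The second probe set of Irf4 was dim, at 4.62 to 4.68 on GFPKO arrays, 4.62 to 5.18 on arrays labelled Treg and 3.74 to 4.59 on TN arrays. In the fit over all probe sets, where 7.99% of probe sets were called between the arrays labelled Treg and TN and 4.07% between GFPKO and TN, it was higher in the arrays labelled Treg than in TN (0.65, adjusted p = 0.031). For GFPKO minus TN it gave 0.44 (adjusted p = 0.297), so the size of the Irf4 change depends on the probe set. With all probe sets of a gene averaged, Irf4 changed by 1.36 in GFPKO and by 1.41 in the arrays labelled Treg relative to TN, both called.

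Batf, the AP-1 partner of IRF4, behaved otherwise: it was high only on the arrays labelled Treg. Its single probe set read 8.20, 8.60 and 8.97 on GFPKO arrays, 9.67, 9.72, 9.58, 9.64 and 9.90 on arrays labelled Treg, and 8.78, 8.87 and 8.85 on TN arrays. All Treg-labelled arrays lay above all others, while the GFPKO arrays lay on both sides of the TN values. Batf was 2.15-fold lower in GFPKO than in the arrays labelled Treg (log2 fold change -1.11 ± 0.15, limma adjusted p = 0.00024), a change exceeded in size by 1.69% of all genes. It was 1.83-fold higher in the arrays labelled Treg than in TN (0.87 ± 0.15, adjusted p = 0.00097). GFPKO minus TN was -0.24 ± 0.17 (95% interval -0.60 to 0.12, adjusted p = 0.566). The SD of Batf was 0.38 in GFPKO, against 0.12 in the arrays labelled Treg and 0.048 in TN. The actin control, whose signal at the 3′ end minus that at the 5′ end gauges RNA integrity, gave 0.77, 0.83 and 0.45 on GFPKO replicates 1, 2 and 3, against 0.38 to 0.61 on all other arrays. With this difference as a covariate Batf remained lower in GFPKO than in the arrays labelled Treg (-0.95, adjusted p = 0.0033).

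Bhlhe40, a basic helix-loop-helix repressor that controls cytokine production in helper T cells, showed 3 separate levels. It read 7.13, 7.30 and 7.03 on GFPKO arrays, 8.08, 7.82, 7.65, 7.77 and 8.17 on arrays labelled Treg, and 5.51, 5.47 and 5.03 on TN arrays. No 2 groups overlapped, with TN lowest and the arrays labelled Treg highest. Its increase was 3.52-fold for GFPKO over TN (log2 fold change 1.82 ± 0.17, limma adjusted p = 5.1e-06) and 5.90-fold for the arrays labelled Treg over TN (2.56 ± 0.15, adjusted p = 1.6e-08). GFPKO was lower than the arrays labelled Treg (-0.74 ± 0.15, adjusted p = 0.0058).

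Hopx, an atypical homeodomain protein that acts through partner proteins, had the same order of groups and the largest of the 8 increases for Treg minus TN. The brightest of its 2 probe sets read 10.28, 10.40 and 10.16 on GFPKO arrays, 11.13, 11.13, 11.26, 11.11 and 11.17 on arrays labelled Treg, and 8.46, 8.07 and 8.39 on TN arrays. Again no pair of groups overlapped. Relative to TN, Hopx was 3.92-fold higher in GFPKO (1.97 ± 0.13 as log2, limma adjusted p = 1.7e-07) and 7.20-fold higher in the arrays labelled Treg (2.85 ± 0.12, adjusted p = 3.7e-10). Of all genes 0.335% had a larger absolute change for Treg minus TN. GFPKO was 1.84-fold lower than the arrays labelled Treg (-0.88 ± 0.12, adjusted p = 0.00025). The second probe set gave 1.63 for GFPKO minus TN, 2.75 for Treg minus TN and -1.11 for GFPKO minus Treg, each of them called, without overlap between groups.

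**Figure D2:**
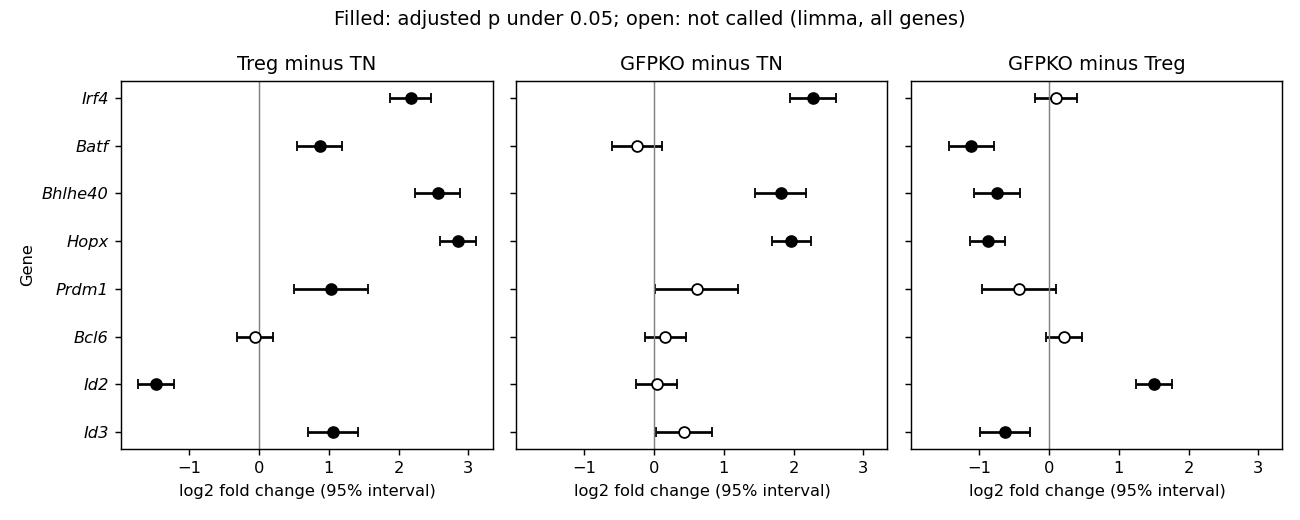
Log2 fold changes of the 8 genes with 95% intervals from limma in the 3 contrasts; filled points have an adjusted p under 0.05 and open points do not. Irf4, Bhlhe40 and Hopx are the filled points for GFPKO minus TN (2.28, 1.82 and 1.97), and Id2 is the filled point above 0 for GFPKO minus Treg (1.51).

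Prdm1, which encodes the repressor Blimp-1, was higher in the arrays labelled Treg than in TN, with wide spread. It read 6.17, 5.98 and 5.56 on GFPKO arrays, 6.82, 6.44, 6.60, 5.70 and 6.06 on arrays labelled Treg, and 5.75, 5.29 and 4.82 on TN arrays. The lowest Treg-labelled array and the lowest GFPKO array both lay below the highest TN array. The increase over TN in the arrays labelled Treg was 2.05-fold (log2 fold change 1.04 ± 0.25, limma adjusted p = 0.012). It did not pass without TN replicate 2 (1.04, adjusted p = 0.05001) or without TN replicate 3 (0.80, adjusted p = 0.099). GFPKO minus TN gave 0.62 ± 0.28 (95% interval 0.023 to 1.21, adjusted p = 0.278) and GFPKO minus Treg gave -0.42 ± 0.25 (95% interval -0.95 to 0.11, adjusted p = 0.339).

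Bcl6, the repressor that defines follicular helper T cells, differed little between groups on its probe sets. The brightest read 6.79, 6.69 and 6.62 on GFPKO arrays, 6.69, 6.50, 6.53, 6.28 and 6.42 on arrays labelled Treg, and 6.47, 6.66 and 6.46 on TN arrays. All 3 groups overlapped. GFPKO minus TN was 0.17 ± 0.13 (95% interval -0.12 to 0.45, limma adjusted p = 0.635), Treg minus TN -0.050 ± 0.12 (-0.31 to 0.21, adjusted p = 0.885) and GFPKO minus Treg 0.22 ± 0.12 (-0.040 to 0.47, adjusted p = 0.306). The dimmer probe set, at 5.08 to 5.21 on GFPKO arrays, 4.48 to 5.11 on arrays labelled Treg and 4.62 to 4.90 on TN arrays, was not called in any contrast either, although its GFPKO and TN values did not overlap (0.35, adjusted p = 0.322).

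Id2, which in lymphocytes supports effector and innate-like differentiation, was low on the arrays labelled Treg, with higher and overlapping values in GFPKO and TN. Its brightest probe set read 9.29, 9.61 and 9.56 on GFPKO arrays, 8.11, 7.94, 7.96, 7.86 and 8.03 on arrays labelled Treg, and 9.62, 9.37 and 9.35 on TN arrays. The arrays labelled Treg lay below all others, and GFPKO and TN overlapped. Id2 was 2.84-fold higher in GFPKO than in the arrays labelled Treg (log2 fold change 1.51 ± 0.12, limma adjusted p = 1.6e-06), and 0.687% of all genes had a larger absolute change. In the arrays labelled Treg it fell by 1.47 ± 0.12 relative to TN (adjusted p = 5.5e-07), and GFPKO minus TN was 0.040 ± 0.14 (95% interval -0.25 to 0.33, adjusted p = 0.941). The other Id2 probe sets gave 1.42 and 1.17 for GFPKO minus Treg and -1.46 and -1.43 for Treg minus TN, all 4 called, and -0.035 and -0.26 for GFPKO minus TN, neither called.

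**Figure D3:**
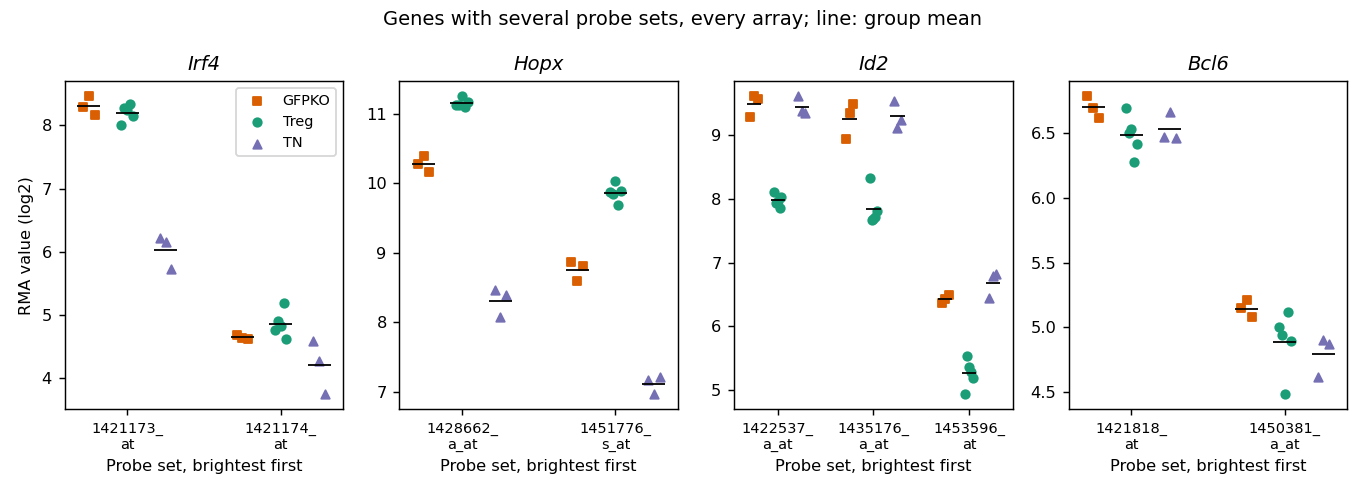
RMA values (log2) on every array for the 4 genes with more than 1 probe set, brightest first, with GFPKO as squares, arrays labelled Treg as circles, TN as triangles and group means as lines. The Hopx and Id2 probe sets keep their order of groups at every brightness apart from GFPKO and TN in Id2, whereas the dim Irf4 probe set differs less than the bright one (0.44 against 2.28 for GFPKO minus TN).

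Natural killer (NK) and dendritic cells also express Id2, so their markers are given beside it. Klrd1, an NK receptor chain, read 3.31 to 4.36 on GFPKO arrays, 2.99 to 3.21 on arrays labelled Treg and 8.63 to 9.10 on TN arrays. Tyrobp, a signalling adaptor of NK and myeloid cells, read 4.04 to 4.99 on GFPKO arrays, 4.12 to 5.08 on arrays labelled Treg and 7.52 to 8.13 on TN arrays. Both were high on TN arrays only. Id2 was high on GFPKO and TN arrays. Ncr1, a defining receptor of NK cells, lay at or below background on every array, its highest value being 3.42. Of 9 NK and innate lymphoid markers with values, 4 had a mean above background in GFPKO, 4 in the arrays labelled Treg and 5 in TN, and their summed linear values per array ran from 181 to 279, from 378 to 503 and from 875 to 1083. Among them Prf1 averaged 5.32 in GFPKO, 5.71 in the arrays labelled Treg and 7.92 in TN. Nkg7 averaged 6.40, 7.99 and 7.27, and was lower in GFPKO than in the arrays labelled Treg (-1.59, limma adjusted p = 0.00055). Relative to TN none of the 9 rose, and 3 fell in GFPKO and 2 in the arrays labelled Treg. Of all genes 3.02% and 3.42% were called lower in these contrasts. For 14 myeloid and dendritic markers the counts were 6, 7 and 11, and the sums ran from 3880 to 4552, from 3952 to 5136 and from 3859 to 4461. Itgax and Siglech, markers of dendritic cells, averaged 3.28 and 3.70 in GFPKO, 3.64 and 3.90 in the arrays labelled Treg, and 4.51 and 5.24 in TN, so that their means were above background only in TN. Of the 14, none rose and 6 fell in GFPKO relative to TN, and 1 rose and 6 fell in the arrays labelled Treg relative to TN. The 1 that rose was Lyz2, a lysozyme of macrophages and neutrophils, with means of 6.57 in GFPKO, 7.02 in the arrays labelled Treg and 5.58 in TN (1.43 for Treg minus TN, limma adjusted p = 0.041). Most of the myeloid sum came from Ctss, a protease of antigen-presenting cells, which averaged 11.96 in GFPKO, 12.01 in the arrays labelled Treg and 11.74 in TN and was not called. The part of these cells in the Id2 level of TN was not tested.

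**Figure D4:**
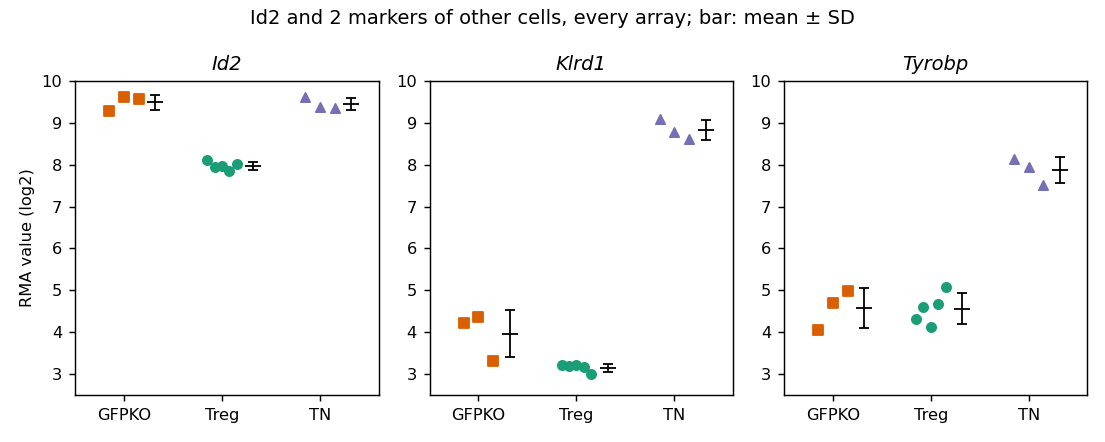
RMA values (log2) of Id2, Klrd1 and Tyrobp on every array on a shared scale, with GFPKO as squares, arrays labelled Treg as circles and TN as triangles; black marks give mean ± SD (n = 3, 5 and 3). Klrd1 and Tyrobp are high on TN arrays only (8.63 to 9.10 and 7.52 to 8.13). Id2 is high on TN arrays and on GFPKO arrays (9.29 to 9.61).

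Id3, the relative of Id2 that is associated with naïve, memory and regulatory T cells, went the other way. Its single probe set read 9.50, 9.98 and 10.40 on GFPKO arrays, 10.53, 10.47, 10.63, 10.48 and 10.84 on arrays labelled Treg, and 9.56, 9.52 and 9.51 on TN arrays. Every array labelled Treg exceeded every GFPKO and TN array. GFPKO replicate 1 read just below all TN arrays, and GFPKO replicate 3 came close to the arrays labelled Treg. The increase in the arrays labelled Treg over TN was 2.08-fold (log2 fold change 1.06 ± 0.17, limma adjusted p = 0.00039). GFPKO minus TN was 0.43 ± 0.19 (95% interval 0.032 to 0.83, adjusted p = 0.252), and it depended on single arrays: it passed the test without GFPKO replicate 1 (0.66, adjusted p = 0.022) and was 0.21 without GFPKO replicate 3 (adjusted p = 0.493). GFPKO was lower than the arrays labelled Treg by the test (-0.63 ± 0.17, adjusted p = 0.026). That call was lost without GFPKO replicate 1 (-0.40, adjusted p = 0.133), GFPKO replicate 2 (-0.64, adjusted p = 0.077), Treg replicate 3 (-0.62, adjusted p = 0.060) or Treg replicate 5 (-0.57, adjusted p = 0.064). It was also lost with the actin covariate (-0.41, adjusted p = 0.252), after centring each array on its median (-0.47, adjusted p = 0.069) and in a fit of only these groups (-0.63, adjusted p = 0.058). The SD of Id3 was 0.45 in GFPKO, against 0.15 in the arrays labelled Treg and 0.026 in TN.

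Centring each array on its median moved every log2 fold change by 0.024 in the contrast of GFPKO with TN, by -0.14 in that of the arrays labelled Treg with TN, and by 0.17 in that of GFPKO with the arrays labelled Treg. Relative to this shift Bhlhe40 was lower in GFPKO than in the arrays labelled Treg by 0.58 (adjusted p = 0.034), Hopx by 0.71 (adjusted p = 0.0021) and Batf by 0.94 (adjusted p = 0.00054), while Id2 was higher by 1.67 (adjusted p = 8.2e-07). No called direction among the 8 genes turned under it. In the series, the split of all called genes did turn for GFPKO minus Treg, with 899 higher and 675 lower after centring and 464 and 1252 as deposited. Repeated quantile normalisation gave 656 higher and 922 lower. For Treg minus TN the split was 904 higher and 1174 lower after centring, against 1190 and 623 as deposited.

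Markers of other cells that use these factors were also examined. Plasma cells express Irf4 and Prdm1 at high levels. Their surface marker Sdc1 averaged 4.38 in GFPKO, 4.54 in the arrays labelled Treg and 4.59 in TN. Of 6 plasma cell genes 4, 4 and 5 had means above background in these groups, with summed linear values per array of 1636 to 2133, 1916 to 2092 and 1252 to 1417. Xbp1, a factor of secretory cells that T cells also express, was higher than in TN both in GFPKO (0.60, limma adjusted p = 0.011) and in the arrays labelled Treg (0.66, adjusted p = 0.0011), and made up most of these sums. Mzb1, a chaperone of antibody secretion, went the other way, with means of 4.67 in GFPKO, 4.64 in the arrays labelled Treg and 5.43 in TN (-0.79 for Treg minus TN, adjusted p = 0.019; -0.76 for GFPKO minus TN, adjusted p = 0.068). Jchain, the joining chain of secreted antibodies, averaged 3.15 in GFPKO, 3.06 in the arrays labelled Treg and 4.16 in TN and was not called. B cells express Bcl6 and Id3. Their marker Ms4a1 averaged 2.76 in GFPKO, 3.11 in the arrays labelled Treg and 3.98 in TN, each below background, with a highest TN array of 4.05. Of 9 B cell markers 3 were above background in each group, and the sums were 139 to 185 in GFPKO, 316 to 386 in the arrays labelled Treg and 158 to 176 in TN. Cd79b, a chain of the B cell receptor complex, averaged 6.01 in GFPKO, 7.63 in the arrays labelled Treg and 4.36 in TN. Relative to TN, 1 of the 9 rose and 2 fell in GFPKO, and 1 rose and 1 fell in the arrays labelled Treg. Of all genes 2.64% and 6.54% were called higher and 3.02% and 3.42% lower in these contrasts. Cd79b rose in both (1.65 and 3.27), Ms4a1 fell in both, and Cd22 fell in GFPKO (-1.02, limma adjusted p = 0.0020). The CD8 markers summed to 141 to 191 in GFPKO, 164 to 202 in the arrays labelled Treg and 198 to 236 in TN, and the 6 CD4 T cell markers to 21431 to 23491, 20720 to 22033 and 21284 to 21469. The part of other cells in the levels of Irf4, Prdm1, Bcl6 and Id3 was not tested.

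Genes around these factors were taken as 5 lists and counted. Over all genes, 5.66% were called for GFPKO minus TN, 9.97% for Treg minus TN and 9.43% for GFPKO minus Treg. The E proteins and the remaining Id proteins were mostly not called: Tcf3, Tcf4, Tcf12, Id1 and Id4 had no call for GFPKO minus TN or GFPKO minus Treg, and 1 of the 5 was called for Treg minus TN. That gene was Tcf4, with means of 3.57 in the arrays labelled Treg and 4.08 in TN (limma adjusted p = 0.0083), at least 1.06-fold lower once the Treg mean is set to background. The E proteins Tcf3 and Tcf12 averaged 8.93 and 9.41 in GFPKO, 8.99 and 9.38 in the arrays labelled Treg, and 8.79 and 9.55 in TN. Among 11 partners and relatives of IRF and AP-1 factors none rose and 1 fell in GFPKO relative to TN. In the arrays labelled Treg relative to TN, 1 rose and 2 fell. Between GFPKO and the arrays labelled Treg, 1 rose and 1 fell. The list's medians in these contrasts were -0.11, 0.14 and -0.15, against -0.037, 0.030 and -0.079 over all genes. Irf8, an IRF family member, was lower in GFPKO than in the arrays labelled Treg (-0.99 ± 0.17, adjusted p = 0.0013), and Bach2, a repressor that restrains effector differentiation, was higher (0.67 ± 0.18, adjusted p = 0.029). Irf8 was also higher in the arrays labelled Treg than in TN (0.63, adjusted p = 0.023). Fosl2, an AP-1 subunit, fell in GFPKO and in the arrays labelled Treg relative to TN, in GFPKO by at least 1.89-fold and in the arrays labelled Treg by 0.77 on the log2 scale. Batf3, a relative of Batf used by dendritic cells, was at least 1.46-fold lower in the arrays labelled Treg than in TN (adjusted p = 0.030).

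Of 16 other effector and lineage transcription factors with values, 3 rose and 4 fell in GFPKO relative to TN, and 6 rose and 3 fell in the arrays labelled Treg relative to TN. Nfil3, a basic leucine zipper factor, rose in both, by 2.25 ± 0.19 in GFPKO and by 2.59 ± 0.17 in the arrays labelled Treg (limma adjusted p = 1.6e-06 and 4.5e-08). Between GFPKO and the arrays labelled Treg, 3 rose and 1 fell. Of all genes, 5.66% were called for GFPKO minus TN, 9.97% for Treg minus TN and 9.43% for GFPKO minus Treg. Tbx21, which encodes the Th1 factor T-bet, averaged 4.85 in GFPKO, 6.52 in the arrays labelled Treg and 6.48 in TN, and GFPKO was lower than the arrays labelled Treg by 1.67 on the log2 scale (adjusted p = 6.9e-06). Ahr, the aryl hydrocarbon receptor, and Maf, a factor of cytokine production in helper T cells, were higher in GFPKO than in the arrays labelled Treg by 1.49 (adjusted p = 0.0032) and 1.29 (adjusted p = 0.0025). Relative to TN, Ahr was higher by 3.77 in GFPKO and by 2.28 in the arrays labelled Treg, Maf was higher by 2.90 and by 1.60, and Tbx21 was lower in GFPKO (-1.63, adjusted p = 2.2e-05). Lef1, a factor of naïve T cells, averaged 11.47 in GFPKO, 10.68 in the arrays labelled Treg and 11.95 in TN, and was lower than TN by 1.28 in the arrays labelled Treg (adjusted p = 1.1e-06) and higher in GFPKO than in those arrays by 0.79 (adjusted p = 0.00037). The list's median log2 fold change was 0.14 for GFPKO minus TN, 0.10 for Treg minus TN and -0.032 for GFPKO minus Treg, against -0.037, 0.030 and -0.079 over all genes.

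Although Bcl6 was not called, some genes of follicular helper cells differed between groups. Of 11 such genes 4 rose and 1 fell in GFPKO relative to TN, and 6 rose and 2 fell in the arrays labelled Treg relative to TN. In GFPKO relative to the arrays labelled Treg, 2 rose and 4 fell. Of all genes 5.66%, 9.97% and 9.43% were called in these contrasts. Cxcr5, the chemokine receptor that brings T cells into follicles, averaged 6.05 in GFPKO, 8.52 in the arrays labelled Treg and 7.001 in TN. GFPKO was lower in Cxcr5 than the arrays labelled Treg by 2.47 ± 0.18 (limma adjusted p = 5.5e-07) and lower than TN by 0.95 ± 0.20 (adjusted p = 0.0092). Il21, the main cytokine of follicular helper cells, averaged 5.77 in GFPKO, 3.73 in the arrays labelled Treg and 5.03 in TN, so that GFPKO was at least 3.42-fold higher than the arrays labelled Treg (adjusted p = 5.4e-06). In the arrays labelled Treg, Cxcr5 was higher than in TN (1.52, adjusted p = 2.5e-05) and Il21 at least 2.05-fold lower (adjusted p = 0.00018). The inhibitory receptor gene Pdcd1 and the surface glycoprotein gene Cd200 were higher than in TN both in GFPKO (1.17 and 1.57) and in the arrays labelled Treg (1.69 and 1.70). Slamf6, a receptor used in contacts between T and B cells, was higher in GFPKO than in TN (0.78, adjusted p = 0.0016) and than in the arrays labelled Treg (0.59, adjusted p = 0.0046). Tox2, a nuclear factor of follicular helper cells, was lower in GFPKO than in the arrays labelled Treg (-0.87, adjusted p = 0.0081). The list's median was 0.060 for GFPKO minus TN, 0.62 for Treg minus TN and -0.13 for GFPKO minus Treg. Over all genes these medians were -0.037, 0.030 and -0.079.

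The genes that have been linked to Irf4 and Blimp-1 in effector regulatory T cells separated the groups most. All 11 with values, which leave out Il1rl1 and Tigit and share Icos with the follicular list, rose in the arrays labelled Treg relative to TN (median 2.83, against 0.030 over all genes), and 6 rose and 1 fell in GFPKO relative to TN (median 0.63, against -0.037). Relative to the arrays labelled Treg, 7 were lower in GFPKO and 1 was higher (median -0.77, against -0.079). The list holds known Treg markers and was drawn up with results of these samples known, so its direction is not independent evidence. The largest increases over TN in GFPKO were those of Il2ra, given above, Ctla4 (3.86), Ccr6 (2.95) and Il10 (at least 4.03-fold), and those in the arrays labelled Treg were Il2ra, Klrg1 (4.47), Ctla4 (4.35) and Ebi3 (3.97). Klrg1, an inhibitory receptor of terminal effector cells, averaged 4.60 in GFPKO, 8.94 in the arrays labelled Treg and 4.46 in TN. For GFPKO minus Treg, Klrg1 gave -4.34 ± 0.18 (limma adjusted p = 2.2e-09), Ebi3, a cytokine subunit, -3.44 ± 0.18 (adjusted p = 1.6e-08) and Cxcr3, a receptor of Th1 cells, -2.45 ± 0.20 (adjusted p = 1.6e-06). Gzmb, which encodes granzyme B, was at least 6.36-fold lower in GFPKO than in the arrays labelled Treg (adjusted p = 1.4e-06). The gene that was higher in GFPKO than in the arrays labelled Treg was Il10 (1.002, adjusted p = 0.0054), which encodes an anti-inflammatory cytokine. Ccr6 averaged 8.74 in GFPKO, 8.62 in the arrays labelled Treg and 5.79 in TN.

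**Figure D5:**
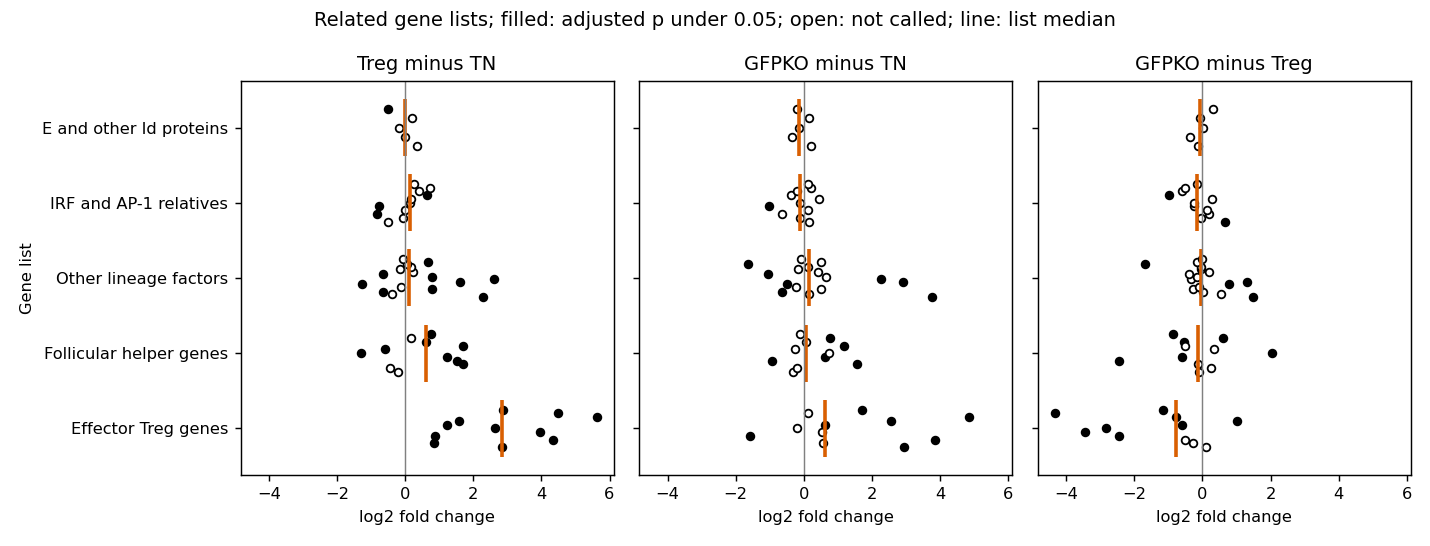
Log2 fold changes of the measured genes of 5 related lists in the 3 contrasts, each point 1 gene (filled: limma adjusted p under 0.05, open: not called), with the list median as a vertical line. The effector Treg genes have medians of 2.83 (Treg minus TN), 0.63 (GFPKO minus TN) and -0.77 (GFPKO minus Treg).

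For each factor the genes with the most similar pattern were sought, by the root mean square difference between log2 values on the 11 arrays after each gene was centred on its own mean. Irf4 lay nearest to Map6 and Endod1 (0.23 each), at a distance well below its own spread of 0.997 around its mean. Bhlhe40 lay nearest to Myo1e (0.15) and Mbnl3 (0.16), and Hopx to Mbnl3 (0.21) and Prnp (0.22), with own spreads of 1.08 and 1.18. Batf was closest to Tspan31 (0.12) and Dok1 (0.13), with a spread of 0.53. Id2 was closest to Mboat1 (0.18) and Tec (0.23), with a spread of 0.75. Tec, a kinase of T cell receptor signalling, averaged 8.59 in GFPKO, 7.45 in the arrays labelled Treg and 8.88 in TN, a drop in the same group as Id2. Id3 was closest to Eef1akmt1 and Alkbh6 (0.09 each), with a spread of 0.50. For Prdm1 (spread 0.56) the nearest were Gphn (0.18) and Inpp5f (0.21), and Bcl6 (spread 0.14) varied too little for a likeness to be read. These distances are descriptions, since all genes share the same arrays and 3 groups. The genes named were picked as the nearest of 18193, so a small distance or a shared pattern follows from that choice.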

How the data were processed

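Expression of 11 samples was measured on 1 Affymetrix array each, from RNA extracted with Trizol, per the labels' protocols. The authors deposited log2 values from RMA, per the submitters' processing notes; its version was not given, and the scale was read from the values (1.54 to 14.65). RMA corrects background, normalises by quantiles and summarises each probe set. Of 45101 probe sets, 64 controls, 932 with several gene symbols and 9160 not listed in the gene table were left out, which left 34945 probe sets and 18193 genes. No filter or further scaling was applied. limma 3.58.1 (R 4.3.3) fitted 1 mean per group to all genes over the 11 arrays, moderated by empirical Bayes and without covariates. Tests were two-sided and adjusted by Benjamini-Hochberg over all genes within a contrast. The method was run on simulated data with independent normal noise. It called 79% to 85% of added log2 changes of 1 and 98% to 99% of those of 2. Among 191 to 196 calls per contrast, 12 to 15 were unchanged genes. The noise had the same SD on all arrays for a gene, so the wider spread of the GFPKO arrays was not simulated. Fold changes are given ± SE. The alternatives were probe sets averaged or fitted singly, fits of only the groups compared, an intensity trend, other scalings, a filter on dim genes, array weights, an actin covariate, a replicate block and each array left out. Named were the 8 genes, label checks, up to 4 called genes per list and contrast with the largest change, and the 2 nearest genes per factor. Tcf3, Tcf12, Id1, Id4, Ccr6 (GFPKO minus Treg), Il10 (GFPKO minus Treg), Cxcr3 (GFPKO minus TN) and the cell markers are named beside them, chosen after their values were seen. Members, lists, tests and alternatives were chosen with earlier results of these data known. Summed marker values are sums of 2 to the power of the log2 value, and "at least" folds take the lower group's mean at background where it lies below. Promoter windows are from RefSeq (GRCm38.p6).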

Additional observations from a re-analysis of the deposited data

Results flagged for a closer look

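Among the 13 probe sets, tested in the 5 arrays labelled Treg for a single array far from the rest, 1 stood out. Chance marks about 1 in 20 such groups. It was the second-brightest Id2 probe set, for which Treg replicate 1 read 8.32 while the other 4 arrays lay between 7.67 and 7.82. Its value was still below the lowest TN array for that probe set, 9.12, and the other 2 Id2 probe sets showed no such gap on that array.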

How the results depend on the processing

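Of 240 combinations of gene, contrast and alternative other than leaving out an array, 228 kept direction and call. Of 264 that left out an array, 253 did. In many of these the direction could not turn. Fitting all probe sets singly, fitting only the groups compared, the intensity trend and the filter on dim genes leave the fold change as it was. So do leaving out an array of the group outside the contrast and averaging probe sets of a gene with a single one. Only the call could move there. Irf4, Batf, Bhlhe40, Hopx and Id2 kept each of their calls under every alternative run, as did Id3 for Treg minus TN. Directions turned only where no call was made: Bcl6 for Treg minus TN with probe sets averaged (0.021), with the replicate block (0.040) and over left-out arrays (-0.10 to 0.015), Id2 for GFPKO minus TN with probe sets averaged (-0.084) and over left-out arrays (-0.022 to 0.14), and Irf4 for GFPKO minus Treg with probe sets averaged (-0.054). The cause was not tested. Array weights gave 5 called members for GFPKO minus TN in place of 3, adding Prdm1 and Id3. The weight was 5.11 for GFPKO replicate 2 and 0.254 and 0.307 for the other GFPKO arrays. With these weights 5051 of all 18193 genes were called in that contrast, against 1029 without them, so the added calls are not particular to these genes. Over left-out arrays the members called ranged from 6 to 7 for Treg minus TN, 3 to 4 for GFPKO minus TN and 4 to 5 for GFPKO minus Treg.

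Counts over all genes moved more. Treg minus TN had 1813 calls, against 2792 when all probe sets were fitted and 3223 with array weights. GFPKO minus TN had 1029, against 562 in a fit of only these groups, 570 with the actin covariate, 5051 with array weights and 644 (without TN replicate 1) to 1868 (without GFPKO replicate 3) over left-out arrays. GFPKO minus Treg had 1716, against 3007 over all probe sets, 811 with the actin covariate, 6756 with array weights, 1049 with the replicate block and 1134 (without GFPKO replicate 1) to 3421 (without GFPKO replicate 3) over left-out arrays. The deviations of samples with the same replicate number correlated at 0.16 to 0.51 for all 3 pairs of replicate 1 and at -0.22 to 0.068 for the 6 pairs of replicates 2 and 3. Since not every pair was above 0.1, the numbers were not taken as pairs. Whether the arrays of replicate 1 were handled together was not tested. With the block Prdm1 was called for GFPKO minus TN (0.62, adjusted p = 0.048) and GFPKO minus Treg (-0.72, adjusted p = 0.022), and Id3 for GFPKO minus Treg was not (-0.59, adjusted p = 0.083). For any member near background, such as the dim Irf4 probe set, the signal over background limits the size that can be read.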
